A study of Drosophila melanogaster with 24 samples.

Results

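How far replicate populations of Drosophila melanogaster drift apart in gene expression was examined in lines that had evolved under larval undernutrition, the Selected regime, and in their Control regime. All 24 libraries of the study were used, 2 for each of 12 populations. For each gene the log2 CPM (CPM being the count scaled by the normalised library size, with 0.5 added) of a population's 2 diet libraries was averaged, and the variance over populations S1 to S6 was set against the variance over C1 to C6. Genes with a mean of 1 CPM or more were kept, 9174 of 14220.

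The Selected regime had 6 replicate populations and the Control regime had 6. From each population, flies were raised on a poor larval diet, with 0.25 of the yeast, sugar and cornmeal, and on a standard one, with some 200 eggs to each 40 ml. All adults ate standard food from day 1, so diet refers to larval food only. Each library is 1 pool of 10 carcasses of mated females aged about 4 days: abdominal body wall and the fat body on it, from which gonads, gut and the larger part of the Malpighian tubules were taken out. A population thus has 1 pool per diet, and within a diet the spread among populations cannot be told apart from the spread among pools.

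Regime, diet and population were taken from the labels' characteristics. The titles name the same regime in 12 of 24 libraries, the same diet in 0 and the same population in 0. Total estimated counts were 29.4 to 31.5 M in 23 libraries and 22.4 M in the standard library of S2. Markers of fat body, oenocytes and body wall muscle were present in every library, and 0 of 3 male markers reached a mean of 1 CPM. Germline, eggshell and midgut genes, which the dissection should remove, varied widely: the 6 germline markers summed to between 24.6 and 1397 CPM in Selected libraries and between 16.3 and 1089 CPM in Control libraries, and the 6 midgut markers to between 9.66 and 12830 CPM in Selected and between 11.3 and 4725 CPM in Control libraries. In such bulk samples, fewer cells of a type and less RNA per cell cannot be told apart.

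Populations kept apart differ through the alleles they started with, through drift and through selection. Selection towards the same outcome can bring populations closer together or leave them on different solutions, and differences due to alleles can appear under both diets. The fat body is the fly's organ for energy storage, humoral immunity and detoxification. Its expression also follows nutrition and infection, which need not repeat between pools.

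The question of overall spread was answered by the distance of each population from the centre of its regime, the root mean square deviation over 9174 genes on the log2 scale, scaled for the 6 populations. The distances were 0.549 in S1, 0.335 in S2, 0.422 in S3, 0.341 in S4, 0.319 in S5 and 0.614 in S6. In Control they were 0.376 in C1, 0.550 in C2, 0.423 in C3, 0.603 in C4, 0.434 in C5 and 0.432 in C6. S6 and S1 lay farthest out in Selected, C4 and C2 in Control, and the regimes overlapped. The means were 0.430 ± 0.124 in Selected and 0.470 ± 0.0871 in Control (SD, n = 6 each). The difference of -0.04 had an exact two-sided permutation p of 0.52 (adjusted p = 0.779 over 9 tests of this kind) and a 95% interval of -0.177 to 0.0946. The smallest p that 6 against 6 allows is 0.00216. The interval holds the differences that the permutation test did not reject with these populations, 0 among them.

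**Figure D1:**
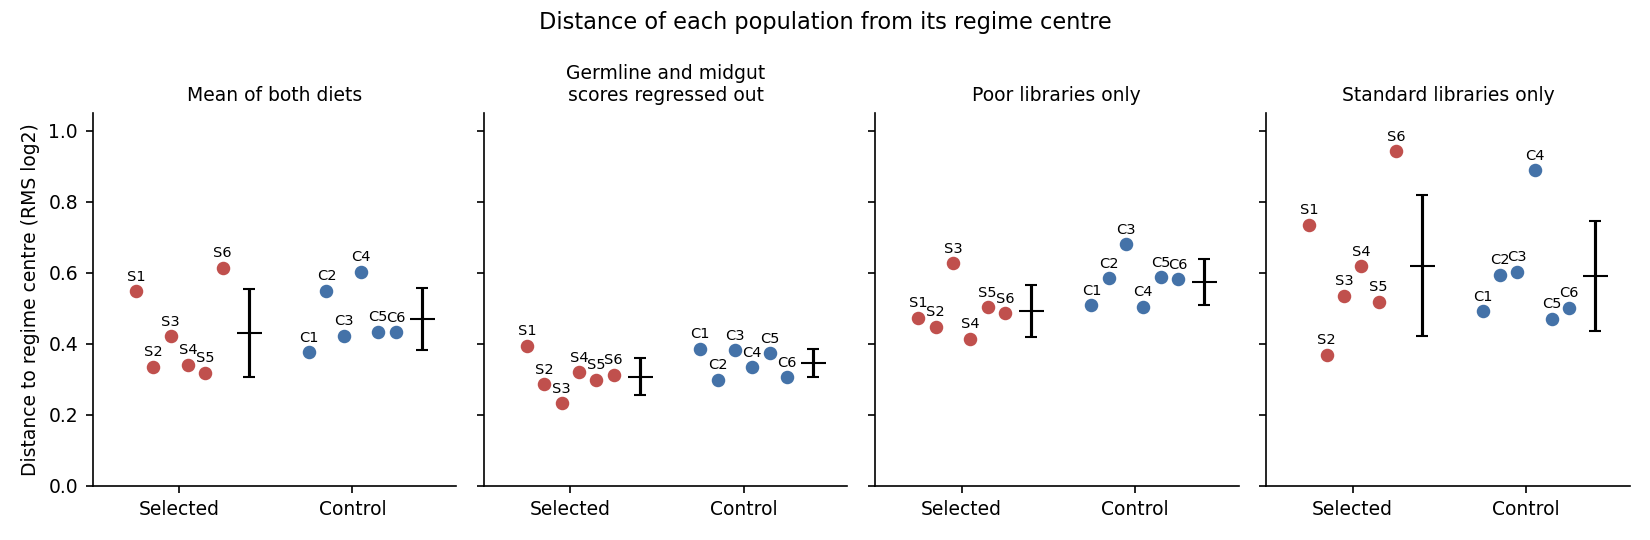
Each point is 1 population, Selected left and Control right, and the vertical axis is its root mean square log2 distance from its regime's centre. Bars are mean ± SD over 6 populations. The regimes overlap in all 4 panels, and with scores of germline and midgut genes regressed out the distances are smaller in 11 of 12 populations, C1 being the exception.

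In the mean of both diets, the populations farthest out held the extremes of germline score in their regimes. S1 was highest at 6.44 and S6 lowest at 3.125 in Selected. C4 was highest at 5.82 and C2 lowest at 0.327 in Control. Their part in the distances was not tested, beyond the scores regressed out below. S6 had the highest midgut score of all on standard diet, 10.2 on the log2 scale, beside a germline score of 1.37. C2 had the lowest germline scores, 0.44 on poor and 0.21 on standard diet. The lowest midgut score, 0.78, was that of S5 on standard diet, the population nearest its centre. In the mean of both diets the midgut score was lowest in S3, at 2.43, beside 3.47 in S5, and highest in S6, at 8.66. With both scores regressed out, the distances fell to 0.307 ± 0.0527 in Selected and 0.346 ± 0.0394 in Control (SD, n = 6 each), a difference of -0.04 (exact permutation p = 0.193, adjusted p = 0.578). S6 then stood at 0.312 and S1, the farthest of all 12, at 0.394; C4 stood at 0.333 and C2, the nearest in Control, at 0.298. On poor larval diet alone the distances were 0.492 ± 0.0733 in Selected and 0.575 ± 0.0647 in Control (exact permutation p = 0.0758, adjusted p = 0.578). On standard diet alone the sign turned, with 0.620 ± 0.199 in Selected and 0.592 ± 0.155 in Control (exact permutation p = 0.786).

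The question whether a population's deviation repeats under both larval diets was answered within populations. For each population the deviations of its poor library from the poor mean of its regime were correlated, across genes, with those of its standard library from the standard mean. The coefficient was 0.636 in S1, 0.338 in S2, 0.048 in S3, -0.17 in S4, -0.224 in S5 and 0.427 in S6. In Control it was 0.141 in C1, 0.734 in C2, -0.137 in C3, 0.453 in C4, 0.333 in C5 and 0.260 in C6. The 2 diets of a population agreed best in C2 and S1, and went opposite ways in S4, S5 and C3. The mean was 0.176 ± 0.345 in Selected and 0.298 ± 0.294 in Control (SD, n = 6 each), a difference of -0.122 with a 95% interval of -0.536 to 0.287 (exact permutation p = 0.509, adjusted p = 0.779). Poor and standard libraries of different populations of a regime, over 30 pairs each, averaged -0.03 in Selected and -0.06 in Control, and single pairs ranged from -0.65 to 0.618.

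**Figure D2:**
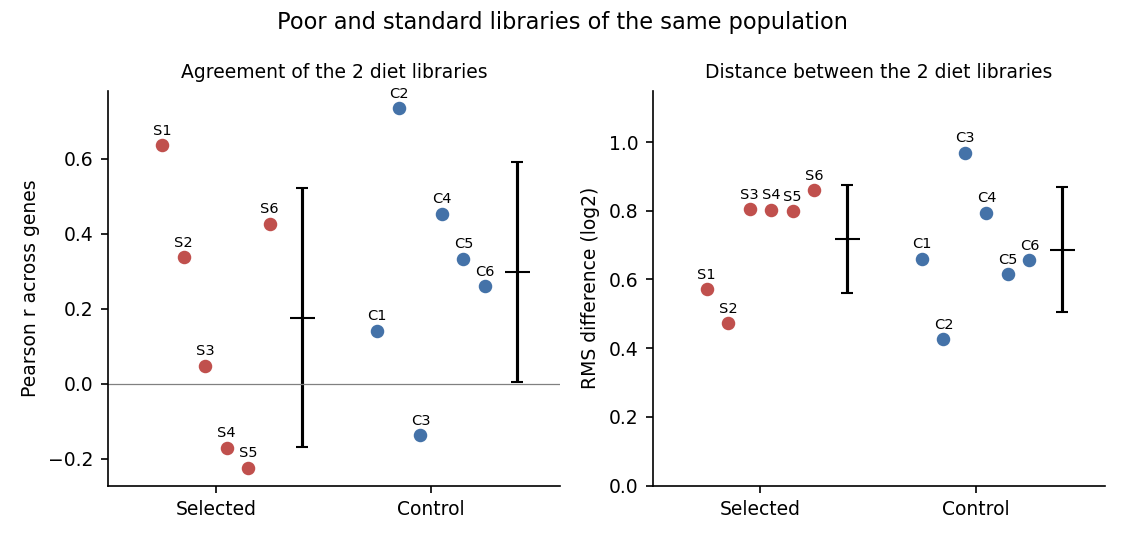
Each point is 1 population, Selected left and Control right, with bars for mean ± SD over 6 populations. The left panel gives Pearson's r across genes between the deviations of the poor and standard libraries, which runs from -0.224 to 0.734; the right panel gives their root mean square difference on the log2 scale.

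Several populations had unequal germline residue in their 2 pools. Where the coefficient was negative, the germline score was 5.96 on poor and 2.87 on standard diet in S4, 2.76 and 5.99 in S5, and 0.738 and 4.83 in C3. In S3, with a coefficient of 0.048, the score was 2.2 on poor and 6.56 on standard diet. In S6, at 0.427, it was 4.88 and 1.37. The scores were 5.96 and 6.92 in S1 (coefficient 0.636), and 5.8 and 5.51 in S2 (0.338). In Control they were 4.535 and 2.7 in C1 (0.141), 0.44 and 0.21 in C2 (0.734), and 5.04 and 6.6 in C4 (0.453). C5 had 5.6 and 4.01 (0.333), and C6 had 4.37 and 1.87 (0.260). With the scores regressed out, every population had a positive coefficient, with means of 0.348 ± 0.129 in Selected and 0.333 ± 0.146 in Control (exact permutation p = 0.855), so the difference turned to 0.02. A poor library then matched its own population's standard library best in 5 of 6 Selected and 4 of 6 Control populations, beside 2 and 3 of 6 before. The distance between the 2 libraries of a population was 0.719 ± 0.157 in Selected and 0.687 ± 0.182 in Control (exact permutation p = 0.755). Without the scores it was 0.425 ± 0.0437 in Selected and 0.491 ± 0.0951 in Control (exact permutation p = 0.149), again with the sign turned. Whether residue or another property of the pools set the agreement was not tested.

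Gene by gene the spread was much alike. The median SD over populations was 0.213 in Selected and 0.221 in Control on the log2 scale, and genes that varied in one regime tended to vary in the other (Spearman's coefficient across genes 0.713, a description, since genes are not independent). The variance was larger in Selected for 4324 genes (47.1%) and larger in Control for 4850. The median log2 ratio of variances, Selected over Control, was -0.1, and it moved between -0.54 without S1 and 0.35 without C4, so its sign rests on single populations. Of 9174 genes, variances differed more than 4-fold for 730 genes wider in Selected and 821 wider in Control. In both diets separately this was so for 83 and 161 genes. Counting error was small beside the spread: in genes of 1 to 2 CPM the median SD was 0.371 in Selected and 0.394 in Control, against 0.115 and 0.116 from counting alone.

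**Figure D3:**
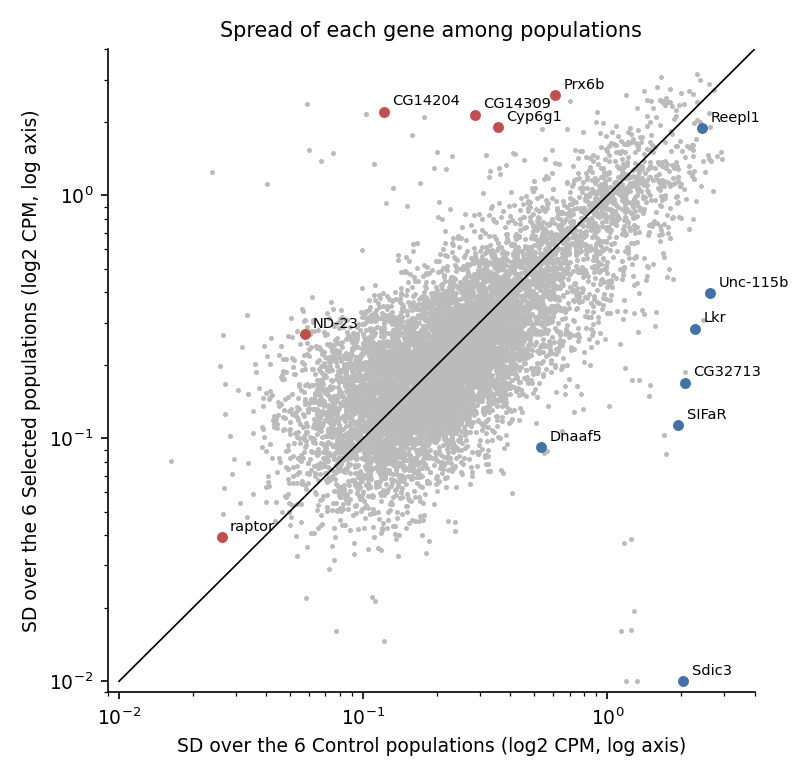
Each grey point is 1 of 9174 genes, with its SD over 6 Selected populations on the vertical axis and over 6 Control populations on the horizontal axis, in log2 CPM on log axes; SDs under 0.01 are drawn at 0.01. The line marks equal spread; named genes above it (red) spread more in Selected and those below it (blue) more in Control.

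A test of the difference in spread compared absolute deviations from the regime mean between regimes, with limma across all genes. It called 1 gene wider in Selected, 0.0109% of those tested, and 2 wider in Control, 0.0218%. At an unadjusted p under 0.05 there were 217 and 408 genes. With a prior variance that follows the mean, the same test called 15 genes, and leaving out a population it called between 2 and 6.

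The gene called wider in Selected was CG14309 (FBgn0038611, 3R:18381580-18385072), an uncharacterised protein-coding gene. It passed the filter on low values through Selected alone, with a mean of 26.2 CPM in Selected and 0.0726 CPM in Control, so with 0.5 CPM added it could show little spread in Control. It stood at 100.3 CPM in S1 on poor diet, at 130.2 CPM in S3 on standard diet and at 83.7 CPM in S5 on standard diet. The other 21 libraries lay under 0.4 CPM, including the second library of each of these 3 populations. The SD over populations was 2.15 in Selected and 0.29 in Control (adjusted p = 9.9e-06). Its level was thus high in single pools and did not repeat in the other diet (r = -0.249 over the Selected populations).

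The 2 genes called wider in Control did repeat. CG32713 (FBgn0052713, X:8456837-8457632), an uncharacterised gene, had 16.8 CPM on poor and 11.3 CPM on standard diet in C2, 3.6 and 6.42 CPM in C5, and 6.58 and 4.41 CPM in C6. It stayed under 0.3 CPM in the 12 Selected libraries and in those of C1, C3 and C4. The SD was 0.17 in Selected and 2.08 in Control (adjusted p = 0.0039). With means of 0.113 CPM in Selected and 4.13 CPM in Control it passed the filter through Control alone, so it could show little spread in Selected. Dnaaf5 (FBgn0288976, 3R:14358356-14361786), a factor for assembling ciliary dynein arms, lay between 4.63 and 6.34 CPM in the Selected libraries. In Control it lay at 2.3 to 3.18 CPM in C2, C5 and C6 and at 5.15 to 7.14 CPM in C1, C3 and C4. The SD was 0.09 in Selected and 0.54 in Control (adjusted p = 0.0017). Where 1 CPM was required in 12 libraries, CG14309 and CG32713 were not tested and Dnaaf5 was the 1 gene called. CG32713 was high and Dnaaf5 low in the same 3 populations. Both calls were lost on leaving out some single populations, with the highest adjusted p at 0.0904.

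The next genes wider in Selected did not pass. CG15646 was at 2.17 CPM or more in S1 and S2 but at 0 in both libraries of S4, while Control libraries held 2.23 to 4.24 CPM (adjusted p = 0.105). For eco, an acetyltransferase needed for sister chromatid cohesion, S1 stood at 151.9 CPM on poor and 155.1 CPM on standard diet and S2 at 132.4 and 101.8 CPM, against 31.1 to 55.9 CPM in Control (adjusted p = 0.105). AIMP1, a component of the tRNA synthetase complex, Klp54D, a kinesin-like gene, CG42821, Gbp1, a growth-blocking peptide, and Est-Q, an esterase, followed with adjusted p from 0.162 to 0.322. CG42821 passed the filter through Selected alone, with means of 1.87 CPM in Selected and 0.186 CPM in Control, so it could show little spread in Control. The sign for Est-Q turned in poor libraries alone.

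Among genes wider in Control without passing were copies and overlapping neighbours, which may share reads. Whether read assignment set their values was not tested. Sdic3 (X:20189440-20194227), one of the near-identical sperm dynein intermediate chain genes, was at 0 in all 12 Selected libraries and at 11.7 and 12.2 CPM in C2 and 6.02 and 7.64 CPM in C5 (adjusted p = 0.105). Sdic3 passed the filter through Control alone, with a mean of 3.26 CPM there, so it could show no spread in Selected. SdicB, its close copy, was at 0 in C2, C4 and C5, so reads of the pair may be split either way. Unc-115b (3R:9687060-9692775), an actin-binding protein, was at 0 and 0.742 CPM in C5 and at 1.06 and 3.91 CPM in C4, against 28.2 to 110.2 CPM in every other library (adjusted p = 0.322). The overlapping p24-2, of the p24 cargo receptor family, was low in the same 2 populations, at 0 in both libraries of C5.

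A second test asked, within a regime, which genes differ among populations more than between the 2 diet libraries of a population. By edgeR, with diet as a term, 39 genes were called among Selected populations, 0.425% of those tested, and 171 among Control populations, 1.86%. At an unadjusted p under 0.05 the numbers were 1543 in Selected and 1664 in Control. The calls lean on single populations and on the tool. Without S6 there were 14 in Selected, without the standard library of S2 there were 15, and without C2 there were 11 in Control. DESeq2 called 1653 in Selected and 1614 in Control. Whether the regimes differ in the number of such genes was not tested. In both regimes 14 genes were called, 35.9% of the Selected calls and 8.19% of the Control calls.

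Detoxification genes were among the Selected calls. Cyp6g1 (FBgn0025454, 2R:12185667-12188431), a cytochrome P450 known for insecticide resistance alleles that raise its expression, had 4943 CPM on poor and 5167 CPM on standard diet in S6, and 3125 and 2907 CPM in S5. The other Selected populations lay between 204.1 and 536.1 CPM and the Control libraries between 363.5 and 1224 CPM. S5 and S6 thus stood more than 5-fold above the other Selected populations under both diets, and above all Control libraries (SD 1.91 in Selected and 0.36 in Control, population test adjusted p = 0.0053 in Selected and 0.407 in Control). Cyp6g2, whose annotated span overlaps that of Cyp6g1, was high in the same 2 Selected populations, with 62.3 and 40.1 CPM in S5, 60.2 and 52.3 CPM in S6, and 2.6 to 5.6 CPM in S1 to S4. Control libraries held 2.01 to 14.1 CPM of Cyp6g2. The difference in spread of Cyp6g1 did not pass (adjusted p = 0.322).

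Cyp4p1, another P450, was low instead. It lay at 5.47 and 5.22 CPM in S3, 11 and 7.55 CPM in S4, and 16.2 and 9.23 CPM in S5, against 41.3 to 113.2 CPM in the Control libraries. S1, S2 and S6 held 23.2 to 61.1 CPM (population test adjusted p = 0.0034 in Selected and 0.512 in Control). Prx6b (FBgn0033520, 2R:10424436-10425471), a peroxiredoxin, which breaks down peroxides, had 806.7 and 1590 CPM in S4. The other Selected libraries lay between 7.96 and 116.1 CPM, and Control libraries between 15.9 and 71.5 CPM (SD 2.59 in Selected and 0.61 in Control, adjusted p = 0.0098 in Selected). Its neighbour Prx6c was among the Selected calls too.

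Digestive genes were among the Selected calls. LysD, a lysozyme of the digestive tract with near-identical copies, had 373.1 CPM on poor and 1492 CPM on standard diet in S6, where the midgut score was highest, and 12.1 CPM or less in the libraries of S2 and S4, whose midgut scores of 6.38 and 5.81 were above those of S3 and S5 (2.43 and 3.47). Control libraries held 90.9 to 363.9 CPM (adjusted p = 0.0293 in Selected). Mal-B1, a maltase, had 155.4 CPM or more in S5 and S6 and 16 CPM or less in S1 and S2, against 13.5 to 161.7 CPM in Control (adjusted p = 0.0063 in Selected). With germline and midgut scores as covariates both were called. LysD lost its call on leaving out S1, S2, S4 or S6, with an adjusted p of up to 0.112, and Mal-B1 kept it on leaving out any Selected population. CG14204, an uncharacterised gene, was at 26.5 and 29 CPM in S6 and under 0.8 CPM in every other library of both regimes. Without S6 its adjusted p was 0.669. It passed the filter through Selected alone, with a mean of 0.211 CPM in Control, so it could show little spread there.

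Some genes were switched between near 0 and a clear level in both regimes. Reepl1 (FBgn0030313, X:11572707-11573640) had 11.3 CPM on poor and 14 CPM on standard diet in S4, and between 5.54 and 14.8 CPM in C1, C2 and C4. In the 5 other Selected and 3 other Control populations it lay under 0.1 CPM in both diets. The poor and standard levels correlated at 0.999 over Selected and 0.99 over Control populations. In Selected both the coefficient and the call rest on S4, without which the population test gave an adjusted p of 0.731. Without C2 the adjusted p in Control was 0.0682. CG14535 (FBgn0031955, 2L:7844905-7855475) had 5.97 to 18 CPM in S3, S4 and S5, and 12.6 to 67.6 CPM in C5 and C6. The remaining libraries held 1.13 CPM or less. On leaving out single populations, CG14535 lost its call in 4 cases in Selected (adjusted p up to 0.0941). In Control it lost it in 2 cases (up to 0.0687). The 14 genes called in both regimes also included Cyp4e3, a P450, GstE11, a glutathione S-transferase, and GlcAT-S, a glucuronyltransferase.

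**Figure D4:**
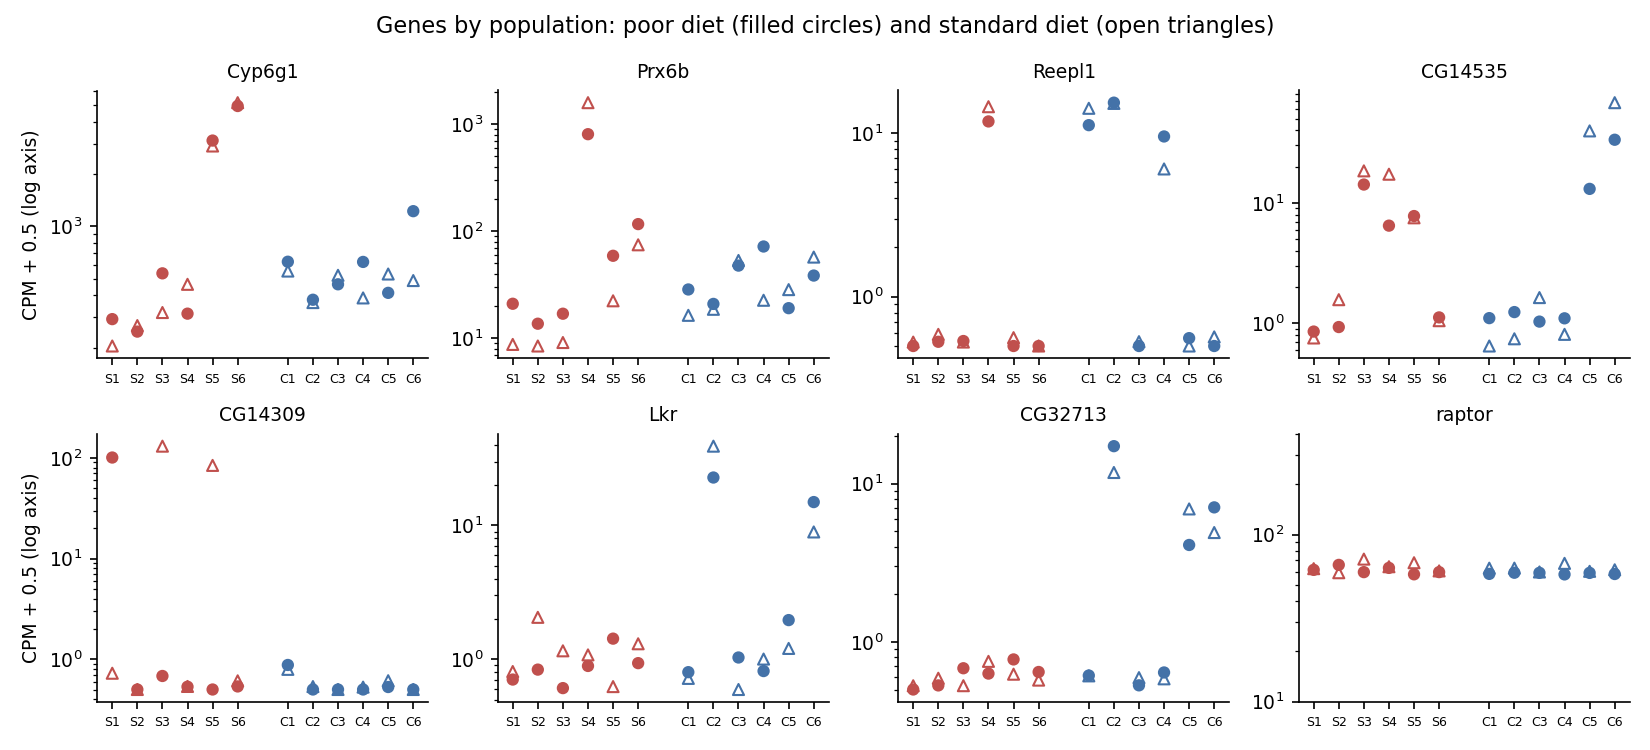
Each panel is 1 gene, with Selected populations (red) left of Control populations (blue); circles are poor and triangles standard libraries, and the vertical axis is CPM plus 0.5 on a log axis. Circles and triangles lie together for Cyp6g1, Prx6b, Reepl1, CG14535, Lkr and CG32713, while CG14309 is high in 1 library each of S1, S3 and S5 and raptor is level throughout.

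Receptor and immune genes stand among the Control calls. Lkr, the receptor for the diuretic neuropeptide leucokinin, had 22.3 and 38.6 CPM in C2 and 14.5 and 8.44 CPM in C6, but under 1.6 CPM in all Selected libraries and the rest of Control (SD 0.28 in Selected and 2.28 in Control, adjusted p = 0.0136 in Control). SIFaR, the receptor for the neuropeptide SIFamide, had 25.5 and 14.7 CPM in C1 and under 0.6 CPM in the other 22 libraries. Without C1 its adjusted p was 0.542. Lkr averaged 0.536 CPM in Selected and 7.33 CPM in Control, and SIFaR 0.247 and 3.565 CPM. Both passed the filter on low values through Control alone, so they could show little spread in Selected. Drsl5, of the drosomycin family of antifungal peptides, lay under 1 CPM in C1, C3 and C5 and between 5.67 and 16.7 CPM in C2, C4 and C6, while Selected libraries ranged from 1.2 to 40.2 CPM. CR33491 (X:20178755-20179729), a pseudogene, had 0.07 and 0 CPM in C4 against 19.1 to 38.6 CPM in the other Control libraries, and 2.09 to 32.5 CPM in Selected ones (adjusted p = 0.0047 in Control). On leaving out single Control populations, Drsl5 lost its call in 4 cases (adjusted p up to 0.0736). Lkr lost its call without C2 (adjusted p = 0.0717) and CR33491 without C4 (adjusted p = 0.0736).

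All 39 Selected calls had a coefficient of 0.915 or more between poor and standard levels over the 6 populations, and the Control calls had 0.829 or more. Agreement of diets is what this test rewards, so these values are a description. Over all genes the median coefficient was 0.306 in Selected and 0.322 in Control, and it was 0.9 or more for 3.03% and 3.94% of genes, 41 of them in both regimes. The Selected calls had a median SD of 1.19 over Selected populations, and the Control calls one of 0.852 over Control populations, a description, since the test chose them for it. The population farthest out was S6 for 15 and S5 for 11 of the 39 Selected calls, and C2 for 48 of the 171 Control calls.

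Of the abundant genes, Cyp4g1, the P450 of hydrocarbon synthesis in oenocytes, ranged over population means from 41840 to 62250 CPM in Selected and from 43940 to 62560 CPM in Control. The yolk protein gene Yp1 ranged from 18670 to 48340 CPM in Selected and from 16500 to 46950 CPM in Control, with SDs of 0.65 and 0.68, above the median SD of all genes. Neither passed a test of spread or of populations. The steadiest gene of 10 CPM or more was raptor, a subunit of the growth regulator TORC1, at 57.3 to 70.8 CPM in Selected and 57.3 to 66.8 CPM in Control libraries. It was followed by Tbc1d15-17, sw, a cytoplasmic dynein intermediate chain, and Ykt6, a SNARE of membrane fusion.

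Genes of oxidative phosphorylation, the mitochondrial respiratory chain and ATP synthase, spread more in Selected in 64 of 71 members, beside 47.1% of all genes. Their median SD was 0.218 in Selected and 0.111 in Control, with a median log2 variance ratio of 1.85 against -0.1 for all genes, and 0 members were called by the variance test. ND-23 of complex I ranged from 79.8 to 136.9 CPM in Selected population means and from 89.1 to 96.1 CPM in Control ones. ND-AGGG, also of complex I, ranged from 145 to 218.8 CPM in Selected and from 166 to 179 CPM in Control. The members moved together: in S6 all 71 lay above the Selected mean, with a median of 0.31, and in S1 70 of 71 lay below it, with a median of -0.28. In Control, all 71 lay below the mean in C5, with a median of -0.11. Other lists stood apart in the same populations: of 29 muscle genes 23 lay above the Selected mean in S6 and 28 below it in S1, and of 36 germline genes all lay below it in S6 and above it in S1. Of 36 midgut genes 33 lay above it in S6 and 25 below it in S1. Their part in the spread was not tested, beyond the scores regressed out here. Leaving out any population kept the number wider in Selected between 60 and 67.

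The larger number wider in Selected held in the mean of both diets and in standard libraries, and turned in poor libraries. In standard libraries alone 68 of 71 members were wider in Selected, but in poor libraries alone 16 were. S1 lay below its diet's mean by a median of -0.27 on poor and -0.31 on standard diet, and S6 above by 0.147 and 0.444. In C3 the medians were -0.29 on poor and 0.14 on standard diet, and in C4 0.154 and -0.31, so the diets offset each other in the mean. The 13 mitochondrially encoded genes showed the same order, 13 of 13 wider in Selected in the mean, 12 of 13 in standard libraries and 3 of 13 in poor ones, but 7 of 13 in the mean without S1. mt:CoI, a subunit of cytochrome oxidase, ranged from 4723 to 10790 CPM in Selected and from 6331 to 9073 CPM in Control. With germline and midgut scores regressed out, 64 of 71 and 13 of 13 were wider in Selected.

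Cytoplasmic ribosomal protein genes were wider in Selected in 64 of 82, with a median SD of 0.156 in Selected and 0.11 in Control. Here too the poor libraries went the other way, with 19 of 82, and without S6 the number was 33. RpS19a ranged from 830.7 to 1237 CPM in Selected and from 933.4 to 1064 CPM in Control. RpS2 went against the list, from 1651 to 1957 CPM in Selected and from 1368 to 2085 CPM in Control. Mitochondrial ribosomal protein genes were wider in Selected in 22 of 73, and in 48 without C4.

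**Figure D5:**
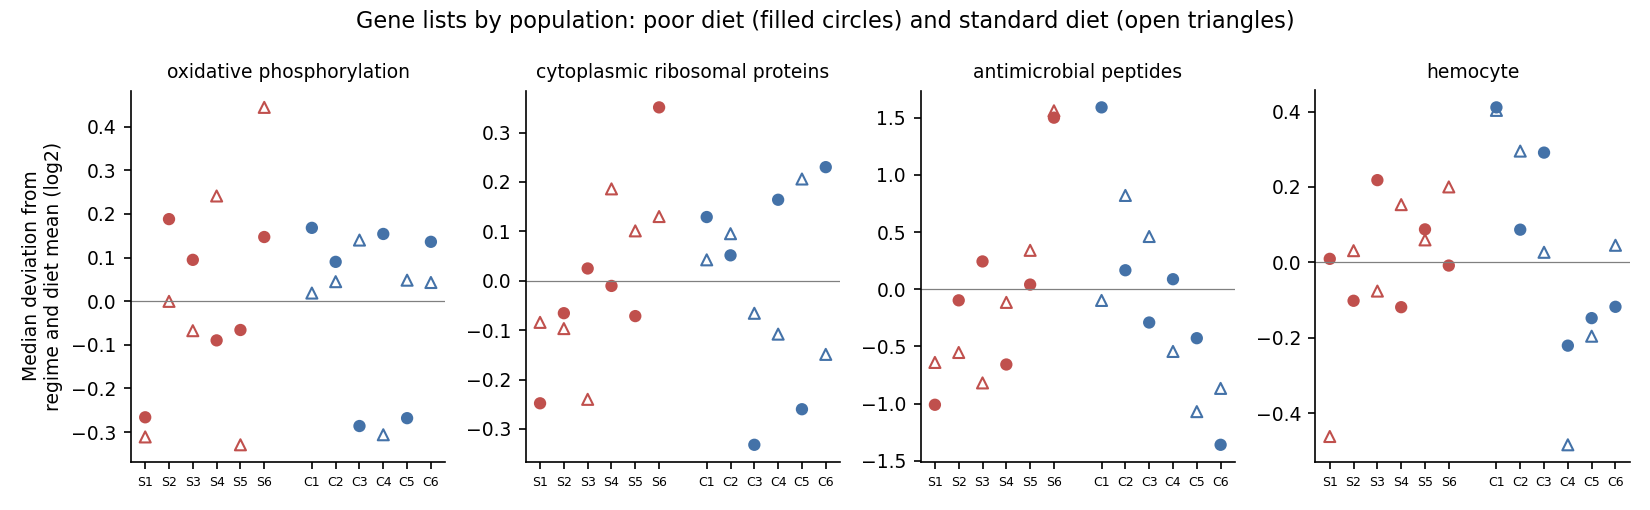
Each point is the median over a gene list of the log2 deviation from the regime and diet mean, by population; circles are poor and triangles standard libraries, Selected (red) left of Control (blue). In oxidative phosphorylation S1 lies below and S6 above 0 in both diets, and antimicrobial peptides are high in S6 and low in C6 in both diets.

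Most antimicrobial peptide, Bomanin and Daisho genes had the larger variance in Control, with 0 members of the lists described called by the variance test in either direction. Of 12 antimicrobial peptide genes 1 was wider in Selected, with median SDs of 0.936 in Selected and 1.34 in Control. Def, the insect defensin, ranged from 0.396 to 8.36 CPM in Selected and from 0.574 to 30.7 CPM in Control, while AttC, an attacin, was the exception with 6.52 to 84.9 CPM in Selected and 10.1 to 59.1 CPM in Control. All 12 lay above the Selected mean in S6, by a median of 1.57. In Control the median ran from -1.22 in C6 to 0.671 in C1. Of 16 Bomanin and Daisho genes, short immune-induced peptides, 3 were wider in Selected, and in C1 all 16 lay above the Control mean. In other immune lists, 12 of 32 recognition and signalling, 4 of 13 melanization and 3 of 10 Turandot and JAK-STAT genes were wider in Selected. Of 4 Tep complement-like genes 3 were wider in Selected. These other lists were not examined in single diets, with scores regressed out or without single populations.

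Of 15 hemocyte genes 1 was wider in Selected, with median SDs of 0.258 in Selected and 0.396 in Control. The type IV collagen genes vkg and Col4a1 had the smallest variance ratios, Selected over Control, of this list. Population means of vkg ranged from 668 to 854.5 CPM in Selected and from 617.3 to 1136 CPM in Control. Those of Col4a1 ranged from 1075 to 1426 CPM in Selected and from 1007 to 1892 CPM in Control. Which cells these transcripts came from was not tested. The hemocyte genes were highest in C1, by a median of 0.38, and lowest in C4, by -0.40. In C1 hemocyte genes were high on both diets, by 0.411 on poor and 0.403 on standard diet, and so were Bomanins, all 16 of them in the mean, by 0.821 on poor diet. Antimicrobial peptides in C1 were high on poor diet, by 1.59, and at -0.10 on standard diet. The part of hemocyte number in the immune genes was not tested.

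Most cuticle and lipid and amino acid genes had the larger variance in Control too. Of 19 Cpr genes, which encode chitin-binding cuticle proteins, 3 were wider in Selected. Cpr49Ah ranged from 41.1 to 68.4 CPM in Selected and from 6.73 to 45.3 CPM in Control. Of 15 genes of fatty acid and triglyceride synthesis 3 were wider in Selected. SREBP, the transcription factor of lipid synthesis, ranged from 331 to 428.9 CPM in Selected and from 331.6 to 560.3 CPM in Control. Of 26 genes of amino acid metabolism 7 were wider in Selected. Cbs, cystathionine beta-synthase, ranged from 52.2 to 62.1 CPM in Selected and from 28.5 to 88.7 CPM in Control, whereas Gnmt, glycine N-methyltransferase, ranged from 112.1 to 534.9 CPM in Selected and from 201.3 to 485.1 CPM in Control. The antimicrobial peptide, Bomanin and Daisho, hemocyte, Cpr, fatty acid and amino acid lists kept a negative median ratio in each diet alone. They also kept it with scores regressed out, and on leaving out any population. In standard libraries alone, 4 of 12 antimicrobial peptides, 6 of 16 Bomanin and Daisho genes and 5 of 15 hemocyte genes were wider in Selected. In poor libraries alone these numbers were 2, 2 and 3, and with scores regressed out 2, 1 and 2. On leaving out a population, those wider in Selected ranged from 0 (without S6) to 3 (without C4) of 12 antimicrobial peptides. The range was 2 to 6 (without C1) of 16 Bomanin and Daisho genes, and 1 to 4 (without C4) of 15 hemocyte genes. On leaving out a population, the numbers also ranged from 2 (without S1) to 6 (without C1) of 19 Cpr genes. They ranged from 1 (without S6) to 5 (without S5) of 15 fatty acid genes and 6 to 10 (without C1) of 26 amino acid genes.

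Of 15 adult fat body genes 3 were wider in Selected, of 18 glycolysis genes 10 and of 29 muscle genes 17. These numbers rest on single samples: 7 of 15 fat body genes without the standard library of S2, 7 of 18 glycolysis genes without S6, and 10 of 29 muscle genes without S1. The 67 cytochrome P450 genes were divided evenly, 33 wider in Selected and 34 in Control, with 5 called by the population test in each regime, beside 0.425% of all genes in Selected and 1.86% in Control. Cyp6g1 and Cyp4p1 had the largest ratios of variance, Selected over Control, while Cyp304a1 had the largest SD in Selected, 2.42, beside 1.8 in Control. Cyp4d1 was among those of the smallest ratio, from 0.0667 to 11.5 CPM over population means, against 5.28 to 11.9 CPM in Selected. Cyp12d1-d, which has a near-identical copy, reached 17.4 CPM in 1 Control population mean and 0.182 CPM at most in Selected. It passed the filter through Control alone, so it could show little spread in Selected.

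Lists of tissue residue had large SDs in both regimes. The 36 germline genes had a median SD of 1.13 in Selected and 1.44 in Control, and 8 were wider in Selected. The yolk receptor gene yl ranged from 75.9 to 490.3 CPM in Selected and from 0.474 to 359.7 CPM in Control population means. In poor libraries 18 of 36 were wider in Selected, and in standard ones 23; the number was 2 without C1 or C5, 3 without S1, 4 without S6, C3 or C6, 15 without C2 and 17 without C4. The 36 midgut digestive genes had a median SD of 1.82 in Selected and 1.24 in Control, and 27 were wider in Selected, but 10 in poor libraries and 16 without S6. Of 13 eggshell genes 11 were wider in Selected, and 7 without S1. Cp38, a chorion gene, reached 348.5 CPM in 1 Selected population mean and 0.173 CPM at most in Control. It passed the filter through Selected alone, so it could show little spread in Control.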

How the data were processed

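Kallisto 0.46.2 was used on build BDGP6, per the submitters' processing notes, which also name limma and edgeR. The deposited tables hold estimated counts and TPM per transcript, per the file headers; TPM was not used. A deposited log2 table of the authors served as an alternative. No source used here gives the use of strand, so reads of overlapping genes on opposite strands cannot be told apart. Of 30944 transcripts, 30811 were joined to BDGP6.54 (Ensembl 115); the rest held 0.282% of counts. Counts were summed per gene, rounded and TMM-normalised (edgeR 4.0.16, R 4.3.3). Spread was tested with limma 3.58.1 on absolute deviations from the regime mean, scaled for n, and populations within a regime with edgeR's quasi-likelihood test with diet as a term. Benjamini-Hochberg adjusted p below 0.05 was called. Single values were compared by exact permutation of the 12 populations (924 relabelings), and intervals invert that test under a shift. DESeq2 1.42.0 was an alternative. The labels call the populations replicates, so p-values of the permutation and limma spread tests rest on the spread between populations. Those of the population test within a regime set differences among populations against what differs between a population's diet libraries beyond the diet term.

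Scores are mean log2 CPM of 6 germline and 6 midgut markers. Of 1437 terms in 49 gene lists, 1405 matched; lists got no test. Members and lists were chosen with earlier results of these data known. Genes named are the 10 of lowest p for spread in each direction, the 8 most variable population calls with r of 0.9 or more per regime, the 5 most abundant, the 4 steadiest of 10 CPM or more, and the extremes of each list described; Prx6c, Cyp4e3, Cyp304a1, GstE11 and GlcAT-S in the report were chosen after their values were seen. Scripts were tested on simulated data.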

Additional observations from a re-analysis of the deposited data

Results flagged for a closer look

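Among 71 pairs of a gene and a regime and 12 pairs of a measure and a regime, Dixon's criterion for 6 values flagged 7 cases. In each, 1 population stood far from the other 5. By chance the criterion flags about 5% of groups not chosen by their values. Most of the genes were chosen by their test of spread or their SD over populations, so that share is no measure for them. The distance from the regime centre on standard diet was 0.888 in C4. By population mean, CG14204 stood at 27.7 CPM in S6, Reepl1 at 12.6 CPM in S4, CG7724 at 7.16 CPM in S6 and SIFaR at 20.1 CPM in C1. CG14309 stood at 0.334 CPM in C1, above the other Control populations, and CR33491 at 0.0352 CPM in C4, below them.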

How the results depend on the processing

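The distance from the regime centre had the same sign, and no exact permutation p under 0.05, under every alternative run but 1, the standard libraries alone, where the difference was 0.0282; leaving out a population gave -0.0826 (without S6) to -0.00589 (without C4). The difference in agreement of the diets turned to 0.0151 with germline and midgut scores regressed out and ranged from -0.257 (without C3) to -0.0159 (without C2) on leaving out a population. The difference in distance between a population's diet libraries was -0.0340 in the authors' deposited log2 table and -0.0663 with the scores regressed out, and -0.0326 (without C2) to 0.111 (without C3) on leaving out a population; without S6 it was -0.00588. The cause was not tested.

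Genes called for a difference in spread numbered 3, and 1 each in the authors' deposited log2 table, at a mean of 10 CPM or more, with 1 CPM in 12 libraries, with the scores regressed out, in standard libraries alone and under the replicate block; 6 in poor libraries alone; 15 with limma's trend, an alternative chosen after seeing the data; and 2 to 6 on leaving out a population. Deviations of S and C populations of the same number correlated between -0.424 and -0.0873. Pairs of unlike number were not computed beside them, so whether the numbers pair populations was not tested. The replicate block left the other results on the same side of 0.05. For Est-Q the difference was -0.0161 with the scores regressed out and -0.0691 in poor libraries.

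Genes called among Selected populations numbered 39, with 149 under the scores as covariates, 312 in 1 fit of all 24 libraries, 1653 by DESeq2, 67 by limma, 15 without the standard library of S2 (also chosen after seeing the data), and 14 to 37 on leaving out a population. For Control the number was 171, with 619 in 1 fit, 1614 by DESeq2, and 11 to 210 on leaving out a population; 10 of the 11 without C2 were among the 171. Of the 39 Selected calls, 37 were called by limma and 39 by DESeq2. Precision is limited by 1 pool per population and diet and by 6 populations a regime. Settings for the gene lists were chosen after seeing the data.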

Other observations

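Some genes called among populations lay beside each other. Of the 171 Control calls, 43 lay within 20 kb of another Control call, and of the 39 Selected calls 4 did, Cyp6g1 with Cyp6g2 and Prx6b with Prx6c. Pairs in Control included SamDC, an enzyme of polyamine synthesis, and Sps2, a selenophosphate synthetase, 1.09 kb apart, and Cand1 and lft, 1.76 kb apart. The Control calls fell on 2L, 2R, 3L, 3R, 4 and X in 39, 38, 27, 34, 2 and 31 cases, beside 1666, 1915, 1733, 2246, 74 and 1524 genes tested. The Selected calls fell there in 8, 14, 7, 4, 1 and 5 cases. Whether these shares, or the number of neighbours, differ from those of other genes was not tested, and neighbouring genes can share reads where they overlap.

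The genes named here were chosen after their values were seen. Immune genes were among the calls of both regimes. Listericin, an antibacterial peptide gene that is in none of the lists, was called in Selected. Its SD was 1.23 in Selected and 0.81 in Control. Among the Control calls, eater, a phagocytic receptor of hemocytes, had an SD of 0.34 in Selected and 0.82 in Control, and PPO2, a prophenoloxidase of crystal cells, had 0.39 in Selected and 0.51 in Control. The antibacterial peptide gene DptB had an SD of 0.95 in Selected and 1.67 in Control.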
